A study of Homo sapiens with 15 samples.

Results

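The transforming growth factor beta (TGF-beta) pathway was followed here through 9 genes, taken by name from a table of 23368 genes: the ligand genes TGFB1, TGFB2 and INHBA, the receptor genes TGFBR1 and TGFBR2, the signal transducers SMAD2, SMAD3 and SMAD4, and the inhibitor SMAD7. In 3 clones of breast cancer cells carrying doxycycline-inducible RBM47, TGFBR2 mRNA fell with the dose in both clones with wild type RBM47 and did not pass the test in the clone with the mutant. The induced RBM47 mRNA did not pass in the mutant clone either, so a lack of calls there is not read as a lack of change. TGFB1 rose in WT6 cells, TGFB2 fell in WT6 cells and INHBA rose in WT10 cells. The calls of TGFBR2 and INHBA in WT10 cells and of TGFB2 in WT6 cells were each lost without that clone's library at 25 ng/ml. The numbers of the 9 genes called were close to the share over all genes in both wild type clones.

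TGF-beta ligands are secreted as latent dimers and, once released, bring together the type II receptor TGFBR2 and the type I receptor TGFBR1. The type I receptor phosphorylates SMAD2 and SMAD3, which enter the nucleus with SMAD4 and change transcription, while SMAD7, itself a target gene, feeds back to inhibit the receptor. In breast cancer cells the pathway is known both for arresting growth and for promoting epithelial-mesenchymal transition and metastasis.

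RBM47 is an RNA-binding protein, and the study asked how steady state mRNA levels change as its amount is raised. Poly(A) RNA was sequenced from 15 libraries, 1 for each of 3 clones at 5 doses of doxycycline: untreated (0 ng/ml), 1, 2.5, 5 and 25 ng/ml. WT6 and WT10 carried wild type RBM47 and MUT3 carried the mutant I281fs, a frameshift whose mRNA is made. All 3 carried FLAG-tagged RBM47 in a retroviral tet-responsive vector, and each was grown out of a single cell, so that a difference between clones cannot be told apart from a difference between genotypes. The labels give MDA231 as the parental line of all 3 clones, while the study's methods give the brain metastatic derivative of CN34 cells for WT6 and that of MDA231 for WT10 and MUT3. Both lines come from human breast cancer. No empty vector clone was analysed here, and how long the cells were treated is not given in the sources used here.

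RBM47 itself, the induced gene, was measured first. In WT6 cells its normalized read count was 258 without doxycycline and 3137, 8094, 3966 and 10425 at 1, 2.5, 5 and 25 ng/ml. In WT10 cells it was 168, 827, 2822, 8134 and 19877 in the same order of doses, and in MUT3 cells 73.8, 92.1, 336, 949 and 22084. The order of the doses was the order of RBM47 levels in WT10 and MUT3 cells, but in WT6 cells the library at 5 ng/ml held less RBM47 mRNA than the one at 2.5 ng/ml. The reads of the deposited counts may come from the transgene or from the endogenous gene.

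Reads assigned to genes numbered from 14955172 to 44771871 per library. The epithelial keratin genes KRT8 and KRT18 and VIM, a mesenchymal gene common in such lines, were high in every library. The epithelial genes KRT19 and EPCAM were lower, from 1061 to 3994 and from 136 to 456 normalized counts. Markers of leukocytes (CD3E, PTPRC) and endothelial cells (PECAM1, VWF) reached at most 9.19 normalized counts. CD68, a macrophage marker that other cells also make, ranged from 2090 to 5307. KRT7 ranged from 41311 to 72761 in WT6 cells, against at most 176 in WT10 and 25.1 in MUT3 cells. The stromal gene DCN ranged from 190 to 735 in WT6 cells, where it rose with the dose, and was at or near 0 in the other 10 libraries, while LUM, another stromal gene, was at most 1.03. In WT6 cells short transcripts rose as a class and long ones fell: at 25 ng/ml the median log2 change from the untreated library was 0.58 over the shortest of 5 classes of transcript length and −0.46 over the longest class. The matching values in WT10 cells were 0.06 and −0.08. At 5 ng/ml they were already 0.60 and −0.41 in WT6 cells, against −0.08 and 0.05 in WT10 and −0.04 and 0.04 in MUT3 cells. TGFB2, TGFBR1, SMAD2, SMAD3, SMAD4 and INHBA were in the longest class and TGFBR2 in the next, so slopes in WT6 cells are also given after these trends with length and GC content were removed.

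Because the study concerns RNA regulation through 3′ untranslated regions, these regions of the 9 genes were read for TTATTTATT, the core of AU-rich elements known from short-lived mRNAs, on the sense strand only. TGFB2 and INHBA each held 2 matches and SMAD2 held 1, while the 3′ untranslated regions of the other 6 genes held none. Among 11653 tested genes with an annotated region, 9.71% held at least 1. The regions were 32870 bases long in SMAD2, 4536 in INHBA and 3257 in TGFB2, against 729 in TGFB1. The share over all genes was not matched for length, so no enrichment is read from these counts. The TGFB2 and INHBA sites are shown because these ligand genes held the motif and had slopes that differed between the wild type clones. The capitals mark the motif, the strand is that of the mRNA, and the build is hg19.
TGFB2 site at chr1:218615162-218615191 (+): taacagtgagTTATTTATTgtgtgttacta
TGFB2 site at chr1:218617547-218617576 (+): ttttattcccTTATTTATTgctatttggta
INHBA site at chr7:41725297-41725326 (−): agctatattaTTATTTATTttttatgcata
INHBA site at chr7:41724837-41724866 (−): atagcagaagTTATTTATTtctatggcatt
A match describes these letters and not a bound site, and TGFBR2, the gene that fell in both wild type clones, held no match.

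TGFB1 encodes the ligand that most often stands for the family, at chr19:41807492-41859827 on the minus strand. Its normalized count without doxycycline was 2476 in WT6 cells, and it was 3034, 3106, 3634 and 5258 at 1, 2.5, 5 and 25 ng/ml, each library higher than the one at the dose before. In WT10 cells it was 3128, 2943, 2736, 2998 and 3998, so that only the library at 25 ng/ml exceeded the untreated one. In MUT3 cells it was 2815, 2845, 2932, 2940 and 3270. The ratio of 25 ng/ml to untreated was 2.12 (95% exact counting interval 2.02 to 2.24) in WT6, 1.28 (1.22 to 1.34) in WT10 and 1.16 (1.10 to 1.23) in MUT3 cells. These intervals cover counting error only, since a dose has 1 library in each clone.

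The dose response was tested as a slope, in log2 units of normalized count per unit of log2(dose + 1), in 1 limma model over 15 libraries and 12644 genes, where the spread is that of the libraries around their clone's line. TGFB1 rose in WT6 cells with a slope of 0.23 (standard error 0.03, limma adjusted p = 3.64e-05), and of 0.18 with length and GC trends removed (limma adjusted p = 7.97e-07). In WT10 cells the slope of 0.08 (SE 0.03) did not pass the threshold of 0.05 (limma adjusted p = 0.0602). It passed under TMM scaling (limma adjusted p = 0.0494), in edgeR on whole reads (adjusted p = 0.0425), with length and GC trends removed (limma adjusted p = 0.000460), and without the WT10 library at 0 ng/ml (slope 0.14, limma adjusted p = 0.0107) or the WT6 library at 5 ng/ml (limma adjusted p = 0.0263). In MUT3 cells the slope was 0.05 (SE 0.03, limma adjusted p = 1.00). HNRNPUL1, TMEM91, CCDC97 and an unnamed gene overlap TGFB1 on the other strand, and because the strandedness of the libraries is not given, reads from the overlapping stretches cannot be told apart.

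**Figure D1:**
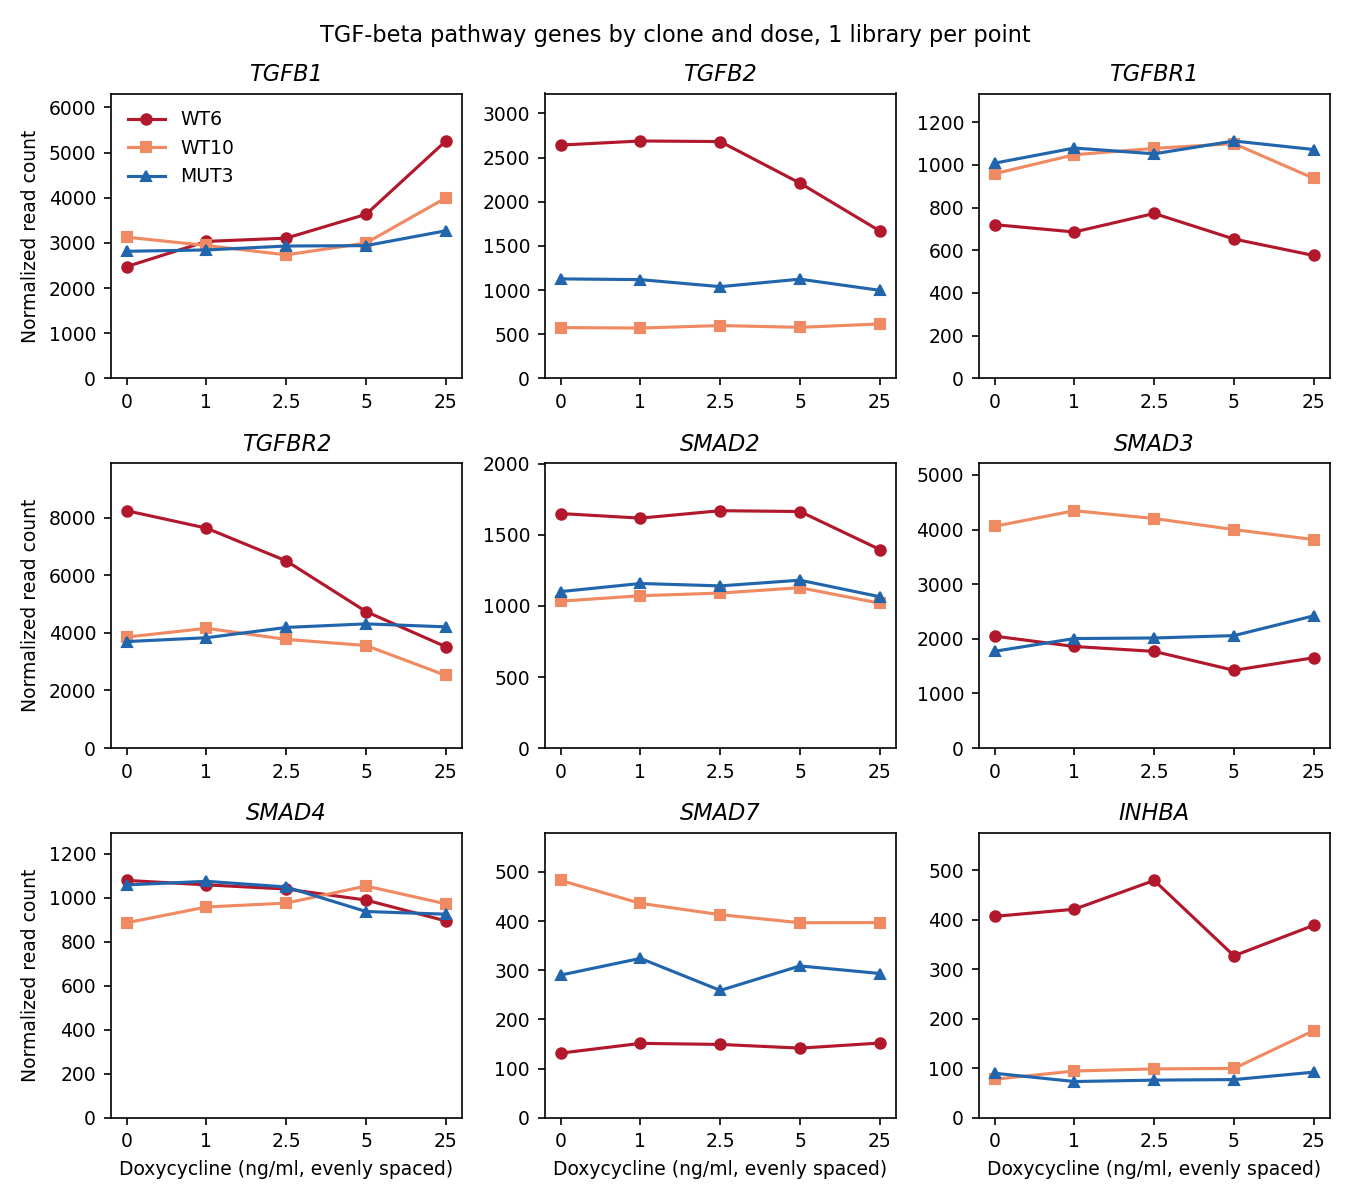
Normalized read counts of the 9 genes (y axis, from 0) against the dose of doxycycline in ng/ml (x axis, doses evenly spaced) in WT6, WT10 and MUT3 cells, each point 1 library. TGFBR2 runs from 8238 to 3517 in WT6 and from 3854 to 2523 in WT10 cells, while MUT3 stays between 3697 and 4311.

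TGFB2 encodes a second ligand of the same receptors, at chr1:218518678-218617961. Its normalized count in WT6 cells was 2642, 2689, 2682, 2211 and 1669 from untreated to 25 ng/ml, level up to 2.5 ng/ml and lower at the 2 highest doses. It lay between 570 and 617 in the 5 WT10 libraries and between 997 and 1127 in the 5 MUT3 libraries. TGFB2 fell in WT6 cells (slope −0.15, SE 0.03, limma adjusted p = 0.000270), and less steeply once length and GC trends were removed (−0.07, limma adjusted p = 0.00425). The call was lost without the WT6 library at 25 ng/ml (slope −0.09, limma adjusted p = 0.126). The slopes in WT10 cells (0.02) and MUT3 cells (−0.03) did not pass the threshold. The antisense gene TGFB2-AS1 and the overlapping TGFB2-OT1 share part of its locus.

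INHBA encodes the subunit of activin A, a relative of TGF-beta that signals through other receptors to the same SMAD2 and SMAD3, and lies at chr7:41706766-41745432 on the minus strand. In WT10 cells its normalized count was 77.9, 94.5, 98.7, 99.7 and 176 by dose, with the library at 25 ng/ml apart from the other 4. In WT6 cells it was 407, 421, 479, 327 and 389, and in MUT3 cells it lay between 73.3 and 92.2. INHBA was the least abundant of the 9 genes in WT10 and MUT3 cells, with 66 reads in its lowest library. It rose in WT10 cells (slope 0.24, SE 0.06, limma adjusted p = 0.00817), and its count there at 25 ng/ml was 2.26 times the untreated one (95% exact counting interval 1.71 to 3.02). Without the WT10 library at 25 ng/ml the slope was 0.13 and the call was lost (limma adjusted p = 0.630). The slope was −0.04 (SE 0.04) in WT6 and 0.03 (SE 0.07) in MUT3 cells, neither past the threshold, and 0.06 in WT6 cells with length and GC trends removed (limma adjusted p = 0.157). INHBA-AS1 overlaps the gene on the other strand.

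TGFBR2, the type II receptor that binds the ligand first, lies at chr3:30648093-30735634 on the plus strand. Normalized counts of TGFBR2 in WT6 cells were 8238, 7634, 6497, 4739 and 3517 from untreated to 25 ng/ml, lower at every dose than at the one before. In WT10 cells it was 3854, 4158, 3774, 3560 and 2523, above the untreated library at 1 ng/ml and below it from 2.5 ng/ml on. In MUT3 cells it was 3697, 3830, 4188, 4311 and 4208, each treated library above the untreated one. At 25 ng/ml the TGFBR2 count of WT6 cells was 0.427 times that without doxycycline (95% exact counting interval 0.409 to 0.446), 0.655 times in WT10 cells (0.622 to 0.690) and 1.14 times in MUT3 cells (1.09 to 1.19).

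TGFBR2 fell with a slope of −0.28 in WT6 cells (SE 0.03, limma adjusted p = 9.63e-06) and of −0.14 in WT10 cells (SE 0.03, limma adjusted p = 0.00504), while the slope in MUT3 cells was 0.04 (SE 0.03, limma adjusted p = 1.00). With length and GC trends removed the slopes were −0.22 in WT6 (limma adjusted p = 9.21e-07) and −0.13 in WT10 cells (limma adjusted p = 0.000293). The WT6 call passed without each of the 15 libraries in turn, with slopes from −0.30 to −0.27. The WT10 call was lost without its library at 25 ng/ml, where the slope was −0.05 (limma adjusted p = 0.655). Without that library only 6 of all genes tested passed in WT10 cells, beside 2527 with it. In WT6 cells TGFBR2 and TGFB1 were both farther from their untreated value at 5 than at 2.5 ng/ml, although RBM47 mRNA was lower at 5 ng/ml. With log2 RBM47 count in place of the dose neither gene passed in WT6 cells (limma adjusted p = 0.221 for each), and nor did TGFBR2 in WT10 cells (limma adjusted p = 0.399). Over all genes tested only 2 passed with this regressor in WT6 and 89 in WT10 cells. The loss was thus shared by nearly all genes, and nothing about TGFBR2 or TGFB1 in particular is read from it.

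TGFBR1, the type I receptor kinase, lies at chr9:101866320-101916474. Its normalized count ranged from 575 to 772 in WT6, from 937 to 1099 in WT10 and from 1008 to 1112 in MUT3 cells. No slope passed the threshold: it was −0.07 in WT6 cells (SE 0.03, limma adjusted p = 0.0641), −0.01 in WT10 cells and 0.02 in MUT3 cells. Once length and GC trends were removed the WT6 slope was 0.03 (limma adjusted p = 0.151).

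SMAD3, at chr15:67356101-67487511, had counts of 2049, 1860, 1770, 1424 and 1654 by dose in WT6 cells, the treated libraries all below the untreated one. In WT10 cells it was 4059, 4345, 4202, 3999 and 3816, and in MUT3 cells 1772, 2006, 2015, 2059 and 2421, rising at each dose. The ratio of 25 ng/ml to untreated in MUT3 cells was 1.37 (95% exact counting interval 1.28 to 1.46). SMAD3 fell in WT6 cells with a slope of −0.08 (SE 0.03, limma adjusted p = 0.0432), but the slope was 0.01 with length and GC trends removed (limma adjusted p = 0.536), and the call was lost without any 1 of 10 libraries, among them the WT6 libraries at 0 and 1 ng/ml (limma adjusted p up to 0.340 over all 15). The MUT3 slope of 0.09 (SE 0.03) had an unadjusted limma p of 0.00919 and an adjusted p of 1.00, and it passed only when each clone was fitted alone (limma adjusted p = 0.000315).

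SMAD4, the partner shared by all activated SMADs, lies at chr18:48554898-48611415, and its counts overlapped between the 3 clones, from 894 to 1078 in WT6, 886 to 1053 in WT10 and 925 to 1074 in MUT3 cells. It fell in WT6 cells with a slope of −0.06 (SE 0.02, limma adjusted p = 0.0495), a call that was lost under each of the 8 alternatives other than leaving out a single library. One of these, the removal of length and GC trends, gave a slope of 0.05 (limma adjusted p = 0.0549). Of the single libraries, 10 ended the call when left out, with adjusted p up to 0.427. SMAD2, at chr18:45335328-45457517, ranged from 1396 to 1669, from 1019 to 1128 and from 1064 to 1181 in WT6, WT10 and MUT3 cells, and its slopes of −0.05, −0.0041 and −0.01 did not pass the threshold. The annotated SMAD2 transcript is 34626 bases long, far beyond the others, so that its WT6 slope with length and GC trends removed (0.04, limma adjusted p = 0.293) rests on the end of the length trend.

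SMAD7, the inhibitory member, lies at chr18:46446223-46477335 and had no gene overlapping it. Its counts were 132, 151, 149, 142 and 152 by dose in WT6 cells, 482, 436, 413, 397 and 397 in WT10 cells and between 259 and 324 in MUT3 cells. The slopes were 0.03 (SE 0.04), −0.06 (SE 0.03) and −0.0027 (SE 0.03), and none passed the threshold (limma adjusted p = 0.557, 0.206 and 1.00). The WT6 slope was again 0.03 with length and GC trends removed (limma adjusted p = 0.551). As SMAD7 is a target of the pathway as well as its inhibitor, its level is often read as an output.

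Among the 9 genes, 5 thus passed the test in WT6 cells (1 rising and 4 falling), 2 in WT10 cells (1 rising and 1 falling) and 0 in MUT3 cells. Over all 12644 genes tested, 57.5% passed in WT6 cells (29.2% rising and 28.3% falling), 20% in WT10 cells (10.2% rising and 9.83% falling) and 0% in MUT3 cells, so that the counts for the 9 genes were close to the background in both wild type clones. In MUT3 cells 1 of the 9 genes, SMAD3, and 295 of all genes had an unadjusted limma p under 0.05, and edgeR called 1 gene in all and none of the 9. The limma test did not call RBM47 itself in MUT3 cells (adjusted p = 0.0517), although its count there rose from 73.8 to 22084. The SMAD3 slope of 0.09 (SE 0.03) was also uncalled there, while that of −0.08 (SE 0.03) in WT6 cells was called. The lack of calls in MUT3 cells is therefore not read as a lack of change. The median slope of the 9 genes was −0.06 in WT6, −0.0041 in WT10 and 0.02 in MUT3 cells, beside 0.0053, −0.0027 and 0.0033 over all genes. These medians were taken with length and GC trends left in. TGFB2, TGFBR1, SMAD2, SMAD3, SMAD4 and INHBA are in the longest class, whose median log2 change in WT6 cells at 25 ng/ml was −0.46. With the trends removed, the WT6 slopes of TGFBR1, SMAD2, SMAD3, SMAD4 and INHBA were positive.

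**Figure D2:**
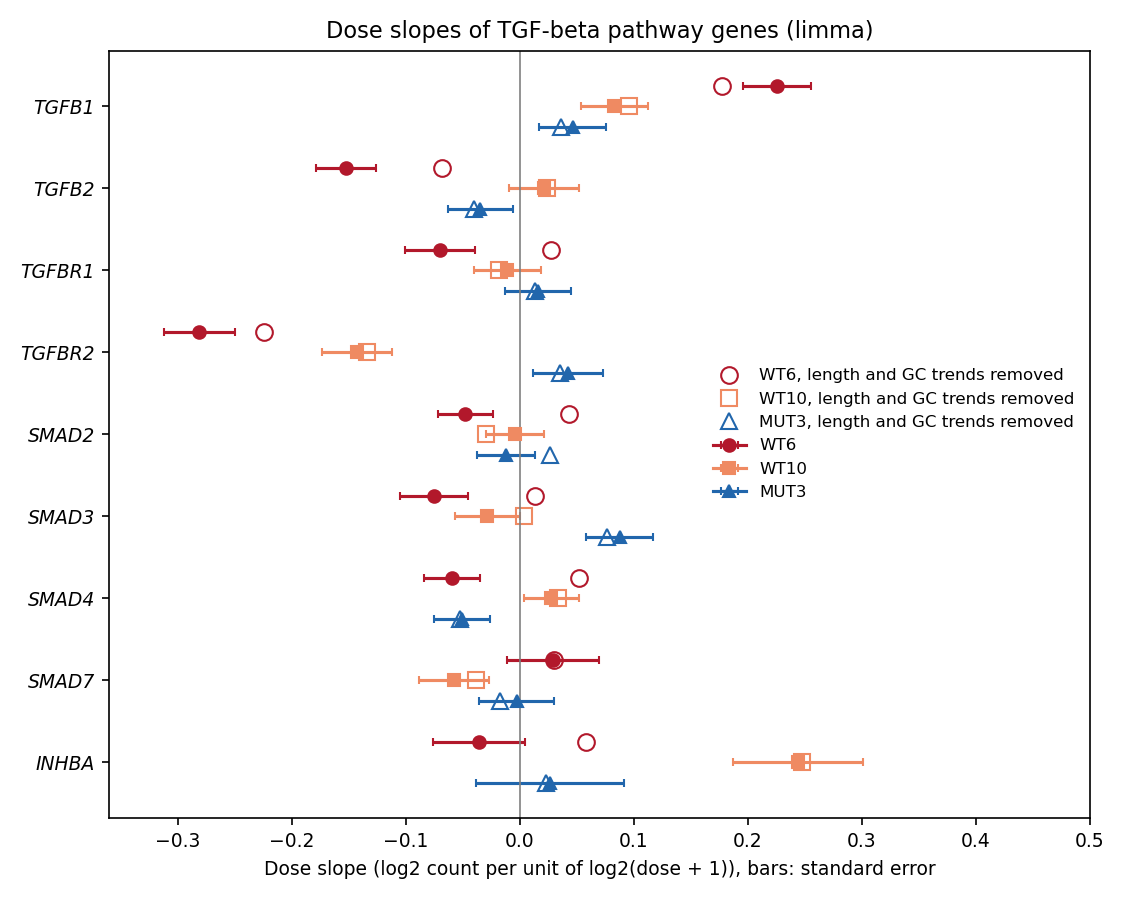
Dose slopes of the 9 genes (x axis, log2 normalized count per unit of log2(dose + 1)) in the 3 clones, with filled symbols and standard error bars from limma and open symbols after length and GC trends were removed. TGFBR2 sits at −0.28 in WT6, −0.14 in WT10 and 0.04 in MUT3 cells, and the open WT6 symbols of TGFBR1, SMAD2, SMAD3, SMAD4 and INHBA lie across zero from the filled ones.

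Whether the slopes differed between clones was tested directly. The mean of the 2 wild type slopes was below the MUT3 slope for TGFBR2 by 0.25 log2 units (difference −0.25, SE 0.04, limma adjusted p = 0.000836) and for SMAD3 (difference −0.14, SE 0.04, limma adjusted p = 0.0134), and above it for TGFB1 (difference 0.11, SE 0.04, limma adjusted p = 0.0417). These are 3 of the 9 genes, beside 24.6% of all genes. When length and GC trends were removed SMAD4 passed as well (difference 0.10, SE 0.03, limma adjusted p = 0.0143). The TGFBR2 difference was lost without the MUT3 library at 25 ng/ml (difference −0.30, limma adjusted p = 0.0893). The SMAD3 difference was lost without the WT10 library at 25 ng/ml (adjusted p = 0.0707) or the MUT3 library at 0 ng/ml (0.0808) or 25 ng/ml (0.276), and the TGFB1 difference without any 1 of 9 libraries, with limma adjusted p up to 0.336 without WT10 at 25 ng/ml. The difference for SMAD3 combined falling counts in WT6 cells with rising counts in MUT3 cells.

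Between WT10 and MUT3 cells, which share a parental line by both accounts, TGFBR2 was the single gene of the 9 whose slopes differed (difference −0.19, SE 0.04, limma adjusted p = 0.0248), beside 5.62% of all genes. After removal of length and GC trends TGFBR2 (difference −0.17, limma adjusted p = 0.00254) was joined by SMAD3 (−0.07, limma adjusted p = 0.0407). The TGFBR2 difference was lost without the WT10 library at 1 ng/ml (limma adjusted p = 0.0598) or 25 ng/ml (0.490), or without the MUT3 library at 0 ng/ml (0.118), 1 ng/ml (0.0559) or 25 ng/ml (0.407). Its direction was negative without each library, from −0.24 to −0.10.

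The 2 wild type clones also differed from each other. The WT6 slope exceeded the WT10 slope for TGFB1 (difference 0.14, SE 0.04, limma adjusted p = 0.0382) and was below it for TGFB2 (−0.17, SE 0.04, limma adjusted p = 0.0201), TGFBR2 (−0.14, SE 0.04, limma adjusted p = 0.0469) and INHBA (−0.28, SE 0.07, limma adjusted p = 0.0245). These 4 of 9 genes stand beside 14.4% of all genes. Only TGFB1 still passed with length and GC trends removed (difference 0.08, limma adjusted p = 0.0304). The TGFB1 and TGFBR2 differences were each lost without any 1 of 11 libraries (limma adjusted p up to 0.230 and 0.268), and those of TGFB2 and INHBA without WT6 at 25 ng/ml (0.168 and 0.0704), WT10 at 0 ng/ml (0.100 and 0.106) or WT10 at 25 ng/ml (0.0877 and 0.348). WT6 cells were also those with KRT7 and DCN, and the part of the parental line in these differences was not tested.

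The clones differed in their levels as well, compared here over the 5 libraries of each clone, untreated and treated together. A clone's range therefore also includes its change with the dose. Between WT6 and WT10 cells the 5 libraries did not overlap for 6 of the 9 genes, beside 44.7% of all genes: TGFB2, SMAD2 and INHBA were higher in WT6, and TGFBR1, SMAD3 and SMAD7 were lower. Between WT6 and MUT3 cells this held for 5 genes, the same ones without SMAD3, beside 53.0% of all genes. Between WT10 and MUT3 cells it held for 3 genes, with TGFB2 lower and SMAD3 and SMAD7 higher in WT10, beside 37.1% of all genes.

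Without doxycycline, INHBA was 5.22 times and TGFB2 4.59 times as high in WT6 as in WT10 cells, and TGFBR2 was 2.14 times as high, while SMAD7 was 0.273 times and SMAD3 0.505 times the WT10 level. At 25 ng/ml the TGFBR2 count of WT6 cells (3517) lay between those of untreated WT10 cells (3854) and WT10 cells at 25 ng/ml (2523). Per kilobase of transcript, untreated TGFBR2 was at 1819 normalized counts in WT6, 851 in WT10 and 816 in MUT3 cells, against 111, 148 and 155 for TGFBR1. Among the ligands, untreated TGFB1 was at 891, 1125 and 1013 per kilobase, TGFB2 at 450, 98.1 and 192, and INHBA at 67.2, 12.9 and 14.9. TGFB1 was thus the most abundant of the 3 ligand genes and TGFBR2 the more abundant receptor gene in each clone.

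**Figure D3:**
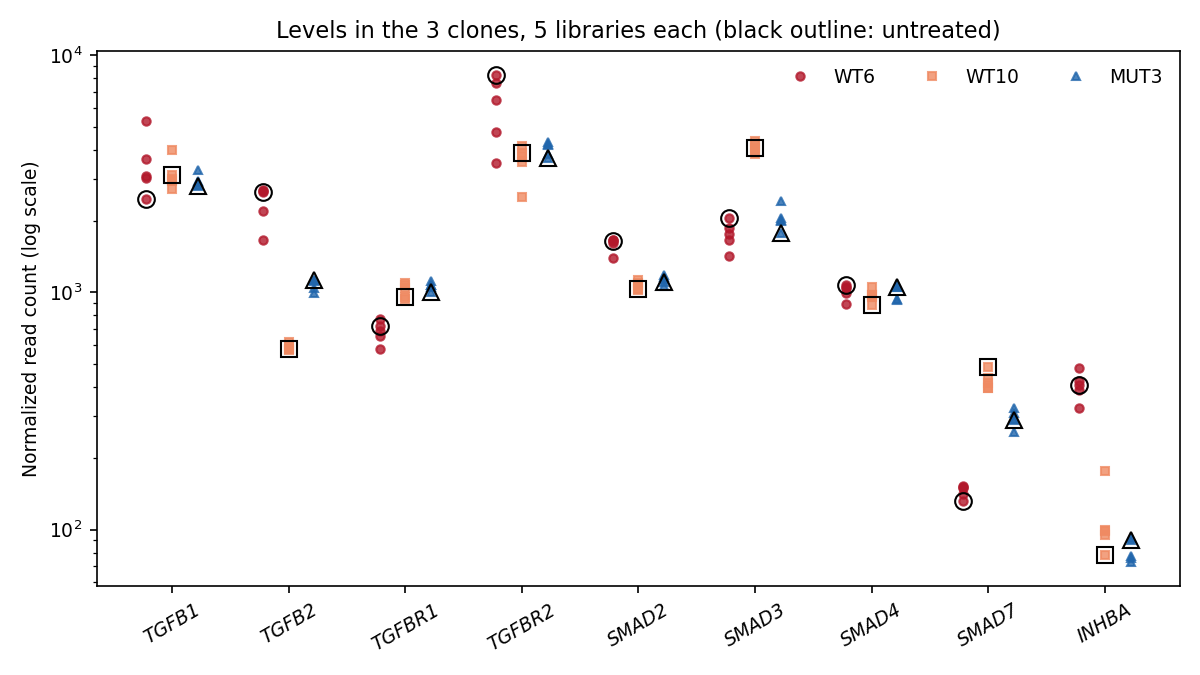
Normalized read counts (y axis, log scale) of the 9 genes in the 5 libraries of WT6, WT10 and MUT3 cells, each point 1 library and the untreated library outlined in black. TGFB2 runs from 1669 to 2689 in WT6, 570 to 617 in WT10 and 997 to 1127 in MUT3 cells with no overlap, while SMAD4 overlaps between all 3 clones.

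The wider pathway was read from 7 lists of 98 genes (ligands, receptors, SMADs, ligand storage and activation, extracellular and receptor level regulators, nuclear partners and corepressors, and target genes), of which 83 could be tested. Leaving out the 9 genes above, 19 of 74 rose and 22 fell in WT6 cells, 10 rose and 10 fell in WT10 cells, and none passed in MUT3 cells. Over all genes tested, 29.2% rose and 28.3% fell in WT6 cells and 10.2% rose and 9.83% fell in WT10 cells, so that the counts over the lists were close to the background in both clones. The counts of single lists are small and stand beside the same shares. Of the 11 receptor genes tested none rose and 5 fell in WT6 cells, and only TGFBR2 fell in WT10 cells. Of 28 target genes 11 rose and 3 fell in WT6 cells, and 8 rose and 5 fell in WT10 cells, with median slopes of 0.05 and 0.04 beside 0.0053 and −0.0027 over all genes. Of 10 nuclear partners and corepressors 3 rose and 6 fell in WT6 cells, and 1 rose and 2 fell in WT10 cells.

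In both wild type clones 13 of the 83 genes passed in the same direction, 7 rising and 6 falling, beside 14.4% of all 12644 genes. The falling ones were TGFBR2, FN1 (fibronectin, a matrix protein and classical TGF-beta target), LTBP1 (which anchors latent TGF-beta in the matrix), SMURF2 (a ubiquitin ligase that works with SMAD7 on the receptor), SKI (a corepressor of SMADs) and CREBBP (a coactivator). The rising ones were FOXH1 (a DNA-binding partner of SMAD2), DAB2 (an endocytic adaptor), and the target genes CDKN1A (the cell cycle inhibitor p21), SNAI2 (the transition factor SLUG), BHLHE40, BMF and EDN1. The falling genes thus held both SMURF2 and SKI, which restrain the pathway, and the coactivator CREBBP, while the SMAD2 partner FOXH1 was among the rising ones. As 13 of 83 genes was close to the share over all genes, no joint direction of the pathway is read from them.

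FN1 counted 21189, 20708, 15906, 9357 and 8889 by dose in WT6 cells and 2781, 3197, 2739, 2164 and 862 in WT10 cells, against 1987 to 2088 in MUT3 cells. Its slopes were −0.31 (SE 0.06, limma adjusted p = 0.000904) and −0.38 (SE 0.06, limma adjusted p = 0.00120). LTBP1 at 25 ng/ml was 0.366 times its untreated count in WT6 cells (95% exact counting interval 0.343 to 0.390) and 0.431 times in WT10 cells (0.364 to 0.509), and 0.958 times in MUT3 cells (0.845 to 1.09). SMURF2 was 0.336 times untreated in WT6 and 0.687 times in WT10 cells, SKI 0.479 and 0.669 times, and CREBBP 0.391 and 0.601 times. In MUT3 cells FN1, LTBP1, SMURF2, SKI and CREBBP were between 0.958 and 1.02 times untreated.

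Among the rising genes FOXH1 at 25 ng/ml was 5.89 times untreated in WT6 cells (4.82 to 7.24) and 2.02 times in WT10 cells (1.70 to 2.42). SNAI2 was 1.88 and 1.63 times untreated in the same clones, and 0.925 times in MUT3 cells (0.815 to 1.05). CDKN1A was 1.78 times untreated in WT6, 2.29 times in WT10 and 1.47 times in MUT3 cells, and BHLHE40 1.67, 2.28 and 1.52 times. Both of these had counting intervals above 1 in MUT3 cells too. BMF had counts of only 7.67 to 43.5 in all 15 libraries.

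All 13 of these genes lost the WT10 call without the WT10 library at 25 ng/ml (limma adjusted p from 0.139 to 0.955), as SKI also did under TMM scaling (0.0598) and in edgeR (adjusted p = 0.0543). Over all genes tested only 6 passed in WT10 cells without that library, beside 2527 with it, so this loss was not particular to the 13 genes. FOXH1, DAB2, SKI and BMF lost the WT10 call without any 1 of 10, 10, 12 and 8 libraries, and SMURF2 also without WT10 at 1 ng/ml (limma adjusted p = 0.0529). The WT6 calls of BMF and BHLHE40 were lost without the WT6 library at 25 ng/ml (limma adjusted p = 0.155 and 0.633), and those of BMF and EDN1 without the WT6 library at 0 ng/ml (0.142 and 0.0883). In WT6 cells all but EDN1 still passed with length and GC trends removed (EDN1 slope 0.03, limma adjusted p = 0.217).

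**Figure D4:**
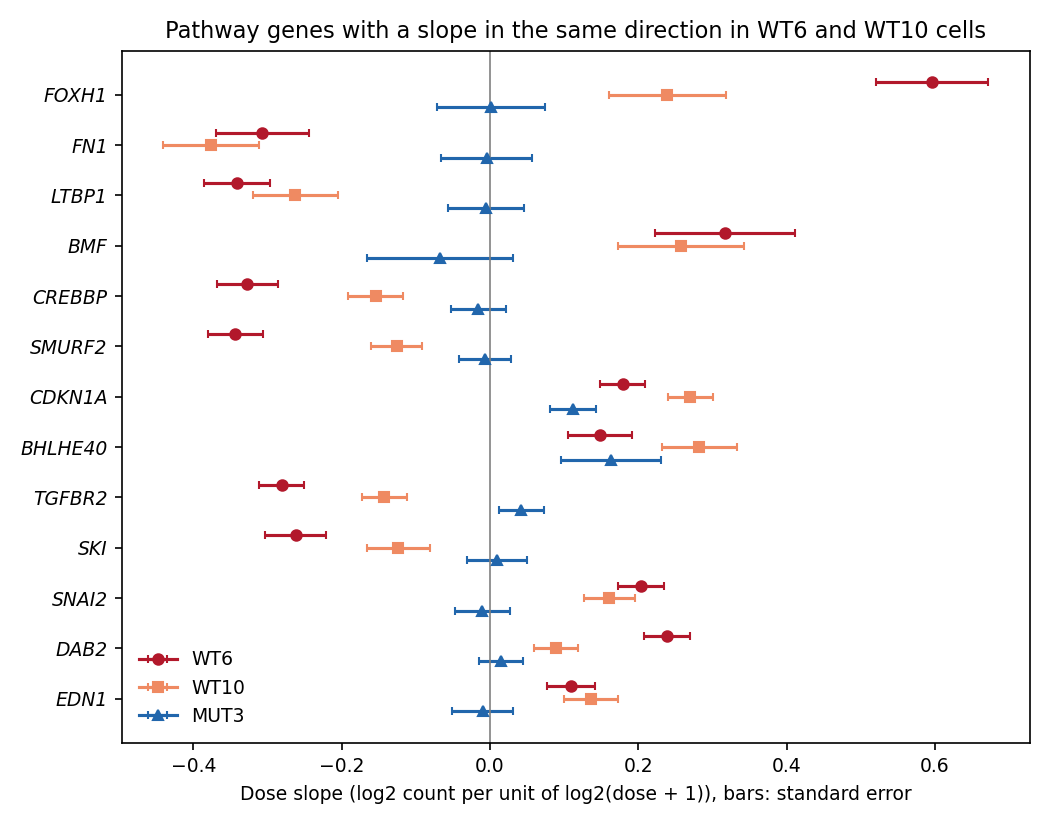
Dose slopes (x axis, log2 normalized count per unit of log2(dose + 1), with standard errors from limma) of the 13 pathway genes that passed in the same direction in WT6 and WT10 cells, with their MUT3 slopes. FOXH1 has the highest WT6 slope (0.60) and FN1 the lowest WT10 slope (−0.38), while the MUT3 slopes run from −0.07 for BMF to 0.16 for BHLHE40.

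Between WT10 and MUT3 cells the slopes of 6 pathway genes differed: TGFBR2, FN1, CDKN1A, and the target genes ID1, ID3 and TAGLN, beside 5.62% of all genes. The differences of CDKN1A and ID1 were near the threshold (limma adjusted p = 0.0468 and 0.0495) and were lost without any 1 of 11 and 12 libraries (limma adjusted p up to 0.676 and 0.800). That of FN1 was lost without any 1 of 5 libraries (up to 0.578), and those of ID3 and TAGLN without WT10 at 25 ng/ml (0.234 and 0.306) or MUT3 at 25 ng/ml (0.437 and 0.455). ID1 and ID3, inhibitors of differentiation best known as targets of the BMP branch, fell in WT10 cells with slopes of −0.17 (limma adjusted p = 0.0213) and −0.25 (limma adjusted p = 0.000905). In WT6 cells neither passed (slope 0.05 for each, limma adjusted p = 0.355 and 0.253). With length and GC trends removed both fell in WT6 cells too (slope −0.12 for each, limma adjusted p = 0.00286 and 5.54e-05). TAGLN, a smooth muscle gene induced by TGF-beta, counted 563, 533, 471, 416 and 220 by dose in WT10 cells and 133, 145, 172, 255 and 217 in WT6 cells. It was the 1 gene of the lists that passed in opposite directions in the wild type clones (slope 0.16 in WT6, limma adjusted p = 0.0162, and −0.28 in WT10, limma adjusted p = 0.000826). The WT10 calls of ID3 and TAGLN were lost without its library at 25 ng/ml (limma adjusted p = 0.184 and 0.284), and that of ID1 without its library at 0 ng/ml (0.0588), 1 ng/ml (0.0501) or 25 ng/ml (0.485). The WT6 call of TAGLN was lost without the WT6 library at 0 ng/ml (slope 0.14, limma adjusted p = 0.108). Its slopes kept their signs without each library in turn, from 0.14 to 0.37 in WT6 and from −0.35 to −0.17 in WT10 cells. The WT6 slope minus the WT10 slope of TAGLN was 0.45 (SE 0.07, limma adjusted p = 0.00636). This difference passed without each library in turn (limma adjusted p up to 0.0278), but under the other alternatives its adjusted p ran up to 0.775.

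How the 9 genes moved relative to each other and to the rest of the table was described by Pearson correlation of log2(normalized count + 1), centred within each clone, over the 15 libraries, which share their doses and their depth. The values were not scaled within a clone, and length and GC trends were left in. TGFB1 and TGFBR2 ran opposite to each other (r = −0.903), and TGFBR1 ran with SMAD2 (r = 0.821). TGFBR2 varied most in WT6 cells, where its highest count was 2.34 times its lowest, against 1.65 in WT10 and 1.17 in MUT3 cells. TGFBR1 and SMAD2 are both in the longest class of transcripts. SMAD7 followed none of the other 8 closely, with r between −0.461 and 0.166. The genes most like TGFBR2 were EXT2 (r = 0.992) and TPR (0.991), those most like TGFB1 were IFFO1 (0.987) and C14orf159 (0.983), and those most like TGFB2 were ENC1 (0.987) and OGFRL1 (0.986). MAP3K2 (0.967) and IBTK (0.964) were nearest to TGFBR1, PPPDE1 (0.963) and RFC3 (0.955) to SMAD2, and NCSTN (0.930) and FRY (0.927) to SMAD3. For SMAD4 they were ZNF347 (0.882) and LOC100507557 (0.876), and for SMAD7 PDF (0.798) and LOC389247 (0.770).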

How the data were processed

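Poly(A) RNA of 3 clones at 5 doses was sequenced on an Illumina HiSeq instrument. Per the labels and the study's methods, reads were aligned to hg19 with STAR and counted per gene with HTSeq 0.5.4, and the authors deposited DESeq-normalized counts, a signal with no replicate, in 1 table of 15 columns. The annotation and strandedness are not given in the sources used here. Dividing a column by the value of 1 read gave whole reads for 100% of values (tolerance 0.01). Of reads in the table, 56.5% to 59.6% were assigned to no gene by HTSeq (its no_feature tally) and were left out with 4 other tally rows. Genes with a mean of at least 10 in each clone (12644) were fitted in limma 3.58.1 (R 4.3.3) on log2(normalized count + 1), with vooma weights and each clone having its own intercept and its own slope on log2(dose + 1) (9 residual degrees of freedom). Benjamini-Hochberg adjustment ran over all 12644 genes. The p-values measure the spread of these libraries around a line, not between cultures.

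The 9 genes, the lists and the tests were chosen with earlier results of these data known. Named besides them were list genes with a slope in the same direction in both wild type clones or a WT10 slope different from MUT3, and the 2 tested genes most correlated with each of the 9 (those for INHBA are not reported here). Ratios carry exact binomial intervals, 95%, for counting error only. Alternatives were a pseudocount of 5, no filter, TMM scaling, edgeR 4.0.16 quasi-likelihood tests on whole reads, removal of trends with length and GC, no 25 ng/ml libraries, log2 RBM47 count as regressor, each clone alone, and each library left out. Lengths, overlaps and 3′ untranslated regions came from GENCODE release 44 on hg19, which matched 91.9% of genes by symbol or older symbol. Code was tested on simulated data.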

Additional observations from a re-analysis of the deposited data

Results flagged for a closer look

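Slopes that differed between clones by a test of the difference itself are listed for a closer look, each in log2 units per unit of log2(dose + 1) with limma's adjusted p. The mean wild type slope minus the MUT3 slope was 0.11 for TGFB1 (adjusted p = 0.0417), −0.25 for TGFBR2 (0.000836) and −0.14 for SMAD3 (0.0134). The WT10 slope minus the MUT3 slope was −0.19 for TGFBR2 (0.0248). The WT6 slope minus the WT10 slope was 0.14 for TGFB1 (0.0382), −0.17 for TGFB2 (0.0201), −0.14 for TGFBR2 (0.0469) and −0.28 for INHBA (0.0245). Each of these 8 differences was lost without at least 1 library, as given above.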

How the results depend on the processing

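No paired analysis was possible because each clone and dose has 1 library and the labels number no replicates across groups. Counts of calls are given as genes tested and then as members of the 9 genes, beside 7272 and 5 in WT6, 2527 and 2 in WT10, 0 and 0 in MUT3, 3114 and 3 for the mean wild type slope against MUT3, 711 and 1 for WT10 against MUT3, and 1817 and 4 for WT6 against WT10. Leaving out each library in turn gave 4623 to 7891 genes and 3 to 6 members in WT6, 6 to 4142 and 0 to 3 in WT10, 0 to 4 and 0 in MUT3, 3 to 4914 and 0 to 3 for the mean wild type difference, 0 to 2262 and 0 to 3 for WT10 against MUT3, and 59 to 3714 and 0 to 5 for WT6 against WT10. Without the 25 ng/ml libraries there were 4688 and 3 in WT6, 17 and 0 in WT10, 1 and 0 for the mean wild type difference, 0 and 0 for WT10 against MUT3, and 7 and 0 for WT6 against WT10. With log2 RBM47 count in place of the dose there were 2 and 0 in WT6, 89 and 0 in WT10, 1 and 0 in MUT3, and 0 and 0 for each difference. With length and GC trends removed there were 3 members in WT6, 4368 genes in WT10, 7 in MUT3, 2254 and 2 for WT10 against MUT3, and 1 member for WT6 against WT10. Each clone fitted alone gave 3945 and 3 in WT6 and 176 and 1 (SMAD3) in MUT3. Members in WT6 numbered 3 also with no filter, TMM scaling and edgeR, and MUT3 had 3 genes with no filter and 1 in edgeR. With length and GC trends removed, the WT6 slope changed sign for SMAD3 (0.013), SMAD4 (0.052), ID1 (−0.12) and ID3 (−0.12). It also did so, while uncalled in both, for TGFBR1 (0.028), SMAD2 (0.043) and INHBA (0.058). Of 1215 recomputed slopes of the 9 genes, 41 changed sign while uncalled in both. The causes were not tested beyond what each setting removes.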
